A study of Mus musculus with 2 samples.

Results

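The p53 pathway was represented by 32 genes: p53 itself (Trp53), its inhibitors Mdm2 and Mdm4, and 29 genes that are described as p53 targets or are close relatives of one. The genes were taken by symbol from the deposited expression table of 23236 rows, by a rule that uses no expression value. All 32 were found, and all 32 lay among the 11751 genes whose mean over both libraries was an FPKM (fragments scaled to transcript length and library size) of 1 or more. None of the 32 was at the lowest listed value in either library.

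The series compared muscle progenitor cells with and without Pax7, a transcription factor that marks satellite cells, the stem cells of skeletal muscle. The Pax7 KO group is 1 polyA RNA-seq library from neonatal mice in which a floxed Pax7 allele was deleted by tamoxifen through a Cre expressed from the Pax7 locus. The mouse lines named are Pax7CreER/+ and Pax7flox/flox. The WT group is 1 library labelled wild type at the same stage, and whether those mice carried either allele is not stated. The tamoxifen schedule in the labels is 75 µg per g of body weight, begun on day 5 and repeated on 5 consecutive days, and receipt of it by the WT mice is not stated in the sources used here. In both groups cells from hind limb and back muscle were enriched by sedimentation, not by a sort that the sources describe, and grown as primary myoblasts in a serum-rich medium with bFGF at 2.5 ng/ml. The Cre acts in cells that express Pax7, so other cell types of the cultures would keep their alleles. How many mice stand behind each library is not stated. With 1 library per genotype there is no spread between replicates, so every difference below is one between these 2 libraries, without a test and without a p-value.

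p53 is a transcription factor that is held at a low level by the ubiquitin ligase Mdm2, itself a p53 target, and is stabilised by DNA damage and other stress. It acts on genes that stop the cell cycle, start apoptosis, repair DNA and adjust metabolism. In proliferating cells in culture many of these genes are expressed without added stress, and in muscle progenitors the p53 target Cdkn1a is also induced during differentiation by routes that do not need p53. p53 protein activity is set mostly after transcription, so the mRNA of Trp53 is not a measure of it.

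Differences between KO and WT use FPKM with a pseudocount of 1 added to both, on the log2 scale, termed log2 ratios, and as folds of the FPKM, KO over WT. The median of the 11751 genes had a log2 ratio of 0.42, so many values below carry a second form, relative to the median gene, from which 0.42 has been subtracted. Genes count as higher or lower past a log2 ratio of 1 in size, which is 2-fold. Intervals are approximate 95% exact (Clopper-Pearson) counting intervals of the log2 fold without the pseudocount, from fragments estimated at a depth of 21200000 in KO and 25350000 in WT. They cover counting error only, not the variation between cultures or animals. Without the pseudocount the median gene lay at 0.50.

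Before the pathway, the labels and the make-up of the cultures were checked. Pax7 was at 0.769 FPKM in KO and 3.21 FPKM in WT, 4.17-fold lower in KO. The 8 satellite cell and myoblast markers were all listed above the lowest value, and summed to 221 FPKM in KO and 335 FPKM in WT. The sum hides unlike differences, as 4 of the 8 were at least 2-fold lower in KO (against 0.689% of all genes). Besides Pax7 these were Myod1, at 17.9 FPKM in KO and 90.4 FPKM in WT, Myf5, at 1.58 and 14.8 FPKM, and Cdh15, at 6.29 and 17.9 FPKM. Only Sdc4 was higher in KO, at 81.0 FPKM against 72.9 FPKM in WT. Markers of other cell types were listed above the lowest value in both libraries: 8 adipocyte markers summed to 1204 FPKM in KO and 242 FPKM in WT, 8 endothelial markers to 813 FPKM in KO and 411 FPKM in WT, and 8 basal keratinocyte markers to 69.6 FPKM in KO and 9.78 FPKM in WT. Of the keratinocyte sum in WT, 5.86 FPKM came from Sfn, which is also in the further list of p53 targets below. Krt5 was at 0.212 FPKM and Krt14 at 0.496 FPKM in WT. The part of these cells in the results below was not tested. In such bulk samples fewer cells of a type and less RNA per cell cannot be told apart.

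The promoters were searched for the element that p53 binds, apart from expression. p53 binds pairs of a 10-base sequence, the p53 decamer, whose consensus reads the same on both strands. RefSeq windows (GRCm38.p6) from 250 bases before to 50 bases after the start were given for 24 of the 32 genes, and 10 of the 24 (41.7%) held at least 1 exact decamer, as did 9.55% of 27025 gene symbols with such windows. Most of the 32 genes were listed as p53 targets, so this difference is a property of the list and not a result of the comparison. Pairs of decamers 0 to 13 bases apart, with at most 1 letter off the consensus over the pair, were found in 2 of the 24, Ccng1 and Cdkn1a, and in 0.718% of all symbols. The 10 with a decamer had a median log2 ratio of 0.63, with a range of 0.04 to 0.87, and the 14 without one had a median of 0.56, with a range of 0.15 to 1.11. The ranges overlap over most of their length. No window was given for Zmat3, Pmaip1, Perp, Tnfrsf10b, Trp53inp1, Rrm2b, Ddb2 and Xpc. A match is a stretch of letters and does not show binding. Sequence outside the windows was not searched, so genes without a decamer here may hold one elsewhere.

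The 250 bases upstream of a RefSeq start are shown for both genes with a pair, at chr11:40755287-40755536 on the minus strand for Ccng1 and chr17:29090729-29090978 on the plus strand for Cdkn1a (both GRCm38.p6). Where a gene had more than 1 window, the first that held a pair is shown. Whether its start is the main start of the gene was not checked. Capitals mark every decamer that belongs to such a pair. In Ccng1 they are 2 adjacent decamers, and in Cdkn1a 3 decamers, of which the first lies 12 bases before the second and the second and the third are adjacent.
Ccng1: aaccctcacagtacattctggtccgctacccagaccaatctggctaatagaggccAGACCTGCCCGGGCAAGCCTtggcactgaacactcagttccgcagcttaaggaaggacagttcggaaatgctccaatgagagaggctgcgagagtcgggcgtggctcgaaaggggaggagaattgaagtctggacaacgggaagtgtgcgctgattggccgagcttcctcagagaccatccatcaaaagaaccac
Cdkn1a: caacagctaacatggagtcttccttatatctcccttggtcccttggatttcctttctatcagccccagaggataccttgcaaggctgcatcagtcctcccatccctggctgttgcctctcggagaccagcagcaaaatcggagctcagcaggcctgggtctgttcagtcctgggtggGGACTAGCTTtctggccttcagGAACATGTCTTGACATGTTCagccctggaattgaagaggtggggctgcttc

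Single decamers are shown with 20 bases on either side for Trp53 and Mdm2, the centre of the pathway, and for Bax and Aen, 2 apoptosis genes with ratios above the median gene. Their positions on GRCm38.p6 are chr11:69580264-69580313 (plus strand), chr10:117710915-117710964 (minus strand), chr7:45467070-45467119 (minus strand) and chr7:78895917-78895966 (plus strand), in that order. The decamer begins 75, 186, 201 and 121 bases before the RefSeq start of the window used, which need not be the main start of the gene.
Trp53: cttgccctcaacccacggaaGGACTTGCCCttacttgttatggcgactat
Mdm2: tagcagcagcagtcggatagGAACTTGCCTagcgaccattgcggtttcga
Bax: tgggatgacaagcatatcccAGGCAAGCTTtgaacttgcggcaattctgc
Aen: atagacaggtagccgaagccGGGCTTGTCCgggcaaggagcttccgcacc

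As a group, the p53 pathway genes differed between the libraries about as much as the median gene. Their median log2 ratio was 0.50, against 0.42 over all 11751 genes, and the middle 50% of the list lay between 0.31 and 0.72, against 0.21 and 0.64 over all genes. Of the 32, 1 was at least 2-fold higher in KO (3.1%, against 5.06% of all genes) and none was at least 2-fold lower (against 0.689%). At a 1.5-fold limit 12 were higher (37.5%, against 30.0% of all genes) and none lower (against 1.43%). A log2 ratio above 0 was seen in 30 of the 32 (93.8%, against 88.6%). Relative to the median gene, 18 were above and 14 below, and none differed by 2-fold, where 1.35% of all genes were past 2-fold higher and 1.45% past 2-fold lower. These shares lie near those of all genes.

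The pseudocount holds back the genes of low level. Without it, 5 of the 32 were at least 2-fold higher (15.6%, against 9.93% of 11670 genes detected in both libraries), namely Phlda3, Perp, Dram1, Polk and Sesn1, and none was at least 2-fold lower (against 0.703%). Relative to the median gene none passed 2-fold in this form either, where the share of all genes was not computed. The authors' deposited table of genes higher in KO holds Phlda3, Perp and Dram1, with folds of 2.20, 2.57 and 2.32, which is 3 of the 32 (9.4%, against 5.20% of all genes). Their table of lower genes holds none of the 32 (against 2.49%). Those tables come from the same 2 libraries.

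**Figure D1:**
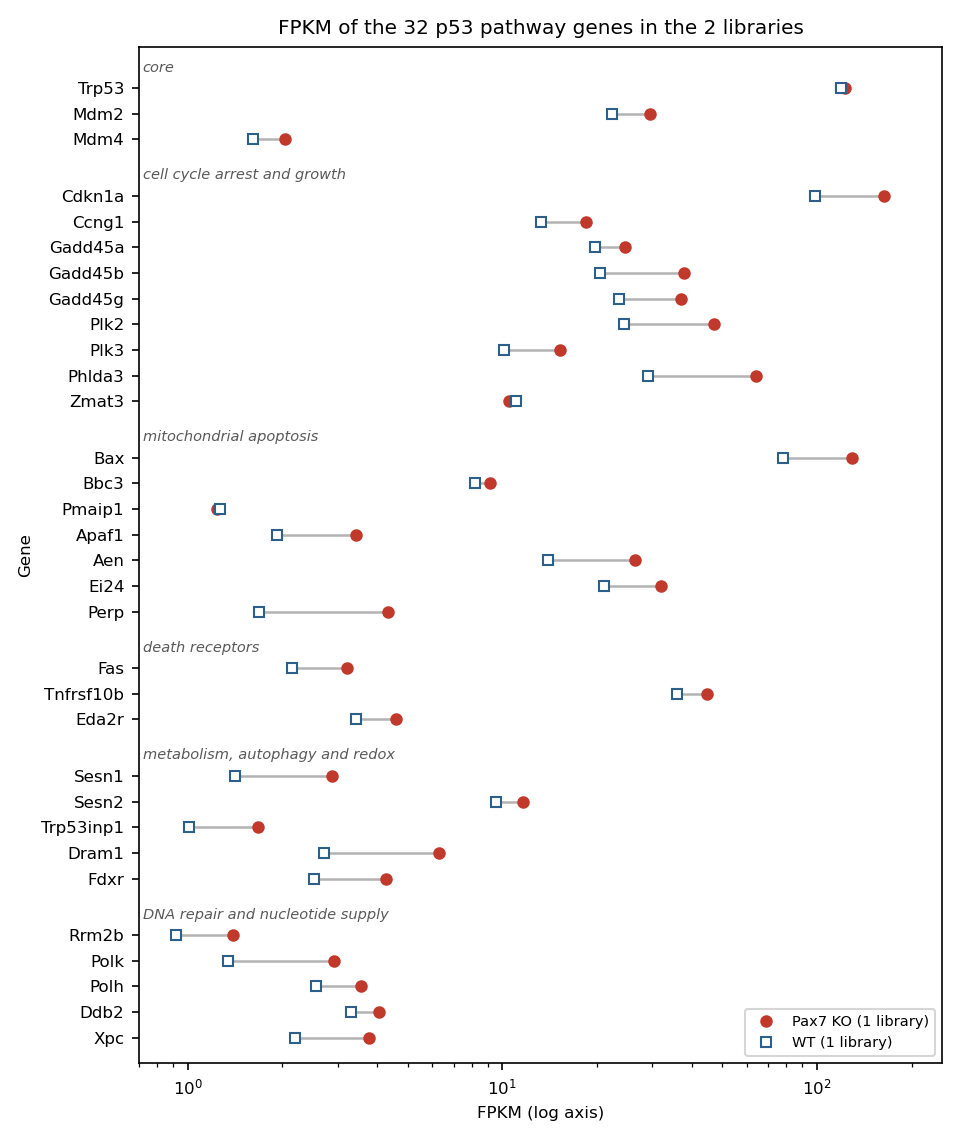
FPKM (log axis) of the 32 genes in the Pax7 KO library (filled circles) and the WT library (open squares), grouped by role, with 1 library per genotype and no error bar. Trp53, Cdkn1a and Bax stand at the high end in both libraries, and 30 of the 32 genes have the KO value to the right.

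Trp53, Mdm2 and Mdm4 all lay below the median gene. Trp53 (chromosome 11, 69393861 to 69405375, mm9), which encodes p53, was at 123 FPKM in KO and 119.7 FPKM in WT. Its log2 ratio was 0.04 and lay 0.38 under the median gene, with a counting interval of 0.00 to 0.08 that lies below the median gene's 0.50. The mRNA was thus nearly equal as deposited, where 87.1% of the other genes of mean FPKM 1 or more had a larger fold. After centring its ratio was -0.38, so that its direction depends on the scaling. Mdm2 (chromosome 10, 117125961 to 117147772), the ubiquitin ligase that degrades p53, was at 29.6 FPKM in KO and 22.4 FPKM in WT, with a log2 ratio of 0.39, 0.03 short of the median gene. Mdm4, the partner of Mdm2 that masks the activation domain of p53, was at 2.04 FPKM in KO and 1.61 FPKM in WT, a ratio of 0.22.

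Ratios between genes within a library do not depend on the scaling of the libraries. Per unit of Trp53, the level of Mdm2 was 0.241 in KO and 0.187 in WT, and that of Cdkn1a was 1.33 in KO and 0.826 in WT. Cdkn1a thus stood above Trp53 in KO and below it in WT. Of the 31 other genes, 29 had a higher level per Trp53 in KO, Zmat3 and Pmaip1 being the exceptions. Over all other genes of mean FPKM 1 or more the share was 87.1%, near that of the list. The ratio of Mdm4 to Mdm2 was 0.0688 in KO and 0.0720 in WT.

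Among the genes of cell cycle arrest and growth, 7 of 9 lay above the median gene, with a median log2 ratio of 0.64. Cdkn1a (chromosome 17, 29227931 to 29237667), which encodes the CDK inhibitor p21, was at 163 FPKM in KO and 98.9 FPKM in WT, the highest level of the list in KO. Its log2 ratio was 0.72, which is 0.30 above the median gene, with a counting interval of 0.67 to 0.78. Phlda3 (chromosome 1, 137662662 to 137665711), a competitor of Akt for membrane lipids, was at 64.0 FPKM in KO and 29.0 FPKM in WT. Phlda3 alone passed 2-fold with the pseudocount, at a log2 ratio of 1.11, and was short of it relative to the median gene, at 0.69. Its interval of 1.03 to 1.25 rests on about 1946 fragments in KO and 1056 in WT.

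The polo-like kinases Plk2 and Plk3, of which Plk2 is also induced by serum, both lay above the median gene and short of 2-fold. Plk2 was at 47.0 FPKM in KO and 24.4 FPKM in WT, a ratio of 0.92, and Plk3 at 15.3 FPKM in KO and 10.1 FPKM in WT, a ratio of 0.55. The row of Plk3 shares its locus with Tctex1d4, and reads of overlapping rows may not have been told apart. Ccng1, cyclin G1, whose promoter carries the adjacent decamers, was at 18.4 FPKM in KO and 13.3 FPKM in WT, 0.02 above the median gene. Zmat3, an RNA-binding zinc finger protein, was at 10.5 FPKM in KO and 11.03 FPKM in WT. At -0.49 it lay farthest below the median gene of the 32, and its interval of -0.16 to 0.02 lies below 0.50. Its row shares a locus with 4930429B21Rik.

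The Gadd45 genes, which encode small stress sensors that bind the p38 kinase activator MTK1, differed in their ratios. Gadd45b was at 37.7 FPKM in KO and 20.4 FPKM in WT, with a log2 ratio of 0.85. Gadd45g was at 37.1 FPKM in KO and 23.4 FPKM in WT, with a ratio of 0.64. Gadd45a, the member most often described as a p53 target, was at 24.6 FPKM in KO and 19.7 FPKM in WT, with a ratio of 0.31, below the median gene. Gadd45a made up 24.7% of the family's summed FPKM in KO and 31.0% in WT, while the share of Gadd45b was 38.0% in KO and 32.2% in WT. The counting intervals of Gadd45a, 0.16 to 0.48, and Gadd45b, 0.74 to 1.03, did not overlap. The row of Gadd45a shares its locus with E230016M11Rik.

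**Figure D2:**
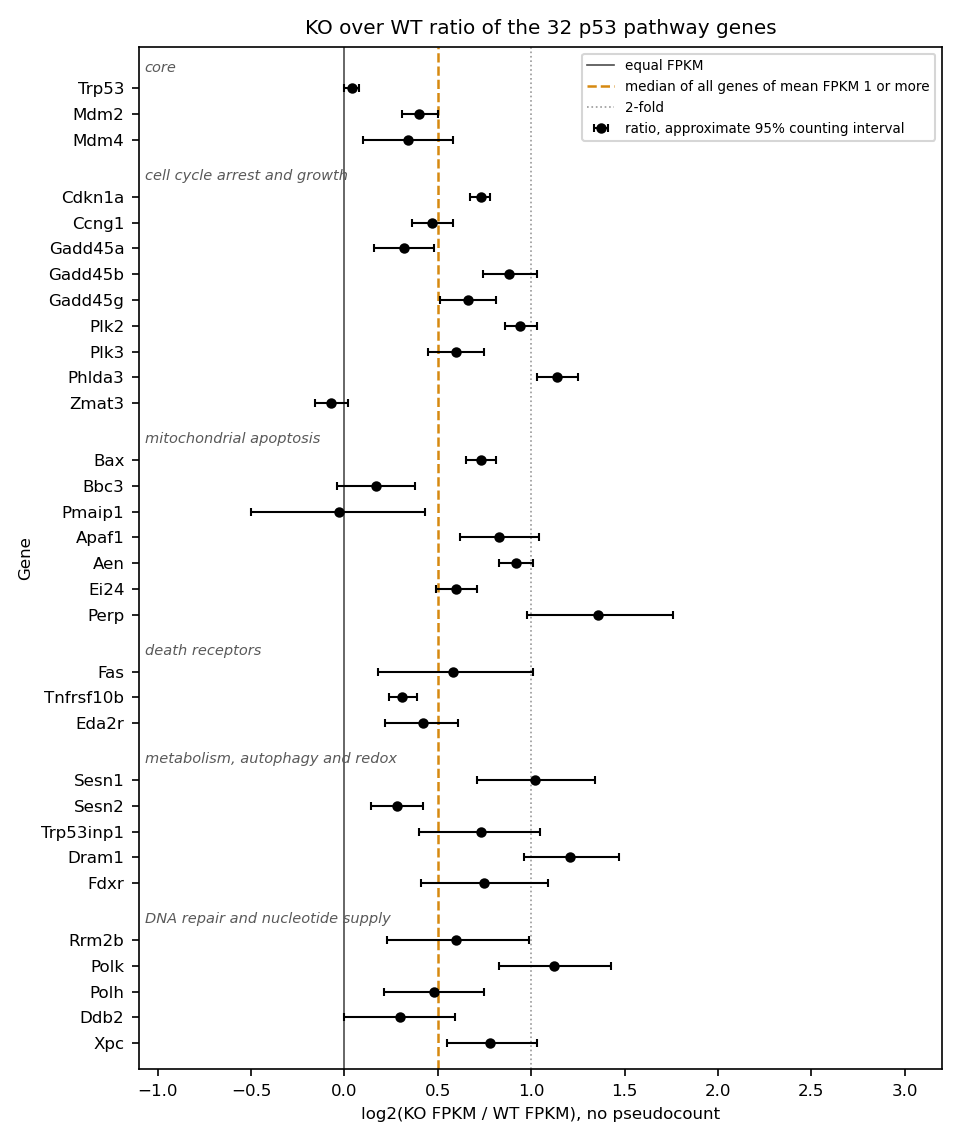
log2 fold of FPKM, KO over WT without a pseudocount, for the 32 genes by role, with approximate 95% counting intervals. The solid line marks equal FPKM, the dashed line the median of all genes at 0.50 and the dotted line 2-fold; Trp53, Zmat3, Bbc3 and Pmaip1 lie farthest left, and Phlda3, Perp, Sesn1, Dram1 and Polk lie beyond the dotted line.

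In the mitochondrial branch of apoptosis, none of the 7 genes passed 2-fold, 5 lay above the median gene and the genes of both BH3-only proteins, Bbc3 and Pmaip1, lay below it. Bax (chromosome 7, 52717065 to 52722268), which perforates the mitochondrial outer membrane, was at 129 FPKM in KO and 77.8 FPKM in WT, with a log2 ratio of 0.72 and an interval of 0.65 to 0.81. Apaf1, the scaffold of the apoptosome, was at 3.42 FPKM in KO and 1.92 FPKM in WT, a ratio of 0.60. Aen, an exonuclease that degrades DNA in apoptosis, was at 26.4 FPKM in KO and 13.9 FPKM in WT, a ratio of 0.87. These 3 lay above the median gene by 0.30, 0.18 and 0.45. The BH3-only proteins that set off Bax had smaller differences. Bbc3, which encodes Puma, was at 9.17 FPKM in KO and 8.16 FPKM in WT, a ratio of 0.15. Pmaip1, which encodes Noxa, was at 1.24 FPKM in KO and 1.27 FPKM in WT, resting on about 72 fragments in KO and 88 in WT. Both intervals, -0.04 to 0.38 for Bbc3 and -0.50 to 0.43 for Pmaip1, include 0 and lie below 0.50. Ei24, an endoplasmic reticulum membrane protein, was at 32 FPKM in KO and 21.1 FPKM in WT, a ratio of 0.58.

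Perp, a membrane protein of desmosomes that is also a p53 target in apoptosis, had the highest FPKM fold of the list. It was at 4.32 FPKM in KO and 1.68 FPKM in WT, 2.57-fold higher, with an interval of 0.98 to 1.76 from about 179 fragments in KO and 83 in WT. Perp is also expressed in stratified epithelium, and the markers of basal keratinocytes differed in the same direction as deposited, to unlike extents. Krt5 was at 18.9 FPKM in KO and 0.212 FPKM in WT, and Krt14 at 19.9 FPKM in KO and 0.496 FPKM in WT. Trp63, the p53 relative that defines basal keratinocytes and drives Perp there, was at 0.386 FPKM in KO and 0.254 FPKM in WT, low in both. The marker Dsp was at 0.782 FPKM in KO and 0.267 FPKM in WT, and Dsg3 at 1.16 FPKM in KO and 0.937 FPKM in WT. Relative to the median gene Perp lay at 0.57, Krt5 at 3.61, Krt14 at 3.38 and Krt17 at 2.24. Sfn lay at 0.56, Col17a1 at 0.41 and Dsp at 0.07, whereas Dsg3 lay at -0.26 and Trp63 at -0.28. The pseudocount weighs on genes this low. Without it Trp63 had a log2 ratio of 0.60 and Dsg3 of 0.31, on either side of the median gene's 0.50. Of the 8 keratinocyte markers none was at the lowest listed value in either library, and their part in the ratio of Perp was not tested.

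The 3 death receptors lay at or just below the median gene. Tnfrsf10b, the mouse receptor of the ligand TRAIL, was at 44.6 FPKM in KO and 35.9 FPKM in WT, a log2 ratio of 0.31. Fas, the receptor of Fas ligand, was at 3.21 FPKM in KO and 2.15 FPKM in WT, a ratio of 0.42. Eda2r, a receptor of ectodysplasin A2 that is expressed in muscle, was at 4.58 FPKM in KO and 3.43 FPKM in WT, a ratio of 0.33. Their ratios spanned 0.31 to 0.42, the narrowest range of the role groups.

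Genes of metabolism, autophagy and redox control were of low level, and their ratios spread more. Dram1, a lysosomal membrane protein of autophagy, was at 6.29 FPKM in KO and 2.71 FPKM in WT, with a log2 ratio of 0.97 and an interval of 0.96 to 1.47 around a fold of 2.32. The sestrins, which restrain mTORC1, differed from each other. Sesn1 was at 2.88 FPKM in KO and 1.42 FPKM in WT, 2.03-fold higher in KO, whereas Sesn2 was at 11.6 FPKM in KO and 9.58 FPKM in WT, 1.21-fold higher. Their counting intervals, 0.71 to 1.34 and 0.14 to 0.42, did not overlap, with Sesn1 above and Sesn2 below the median gene. Trp53inp1, a stress protein that acts with p53, was at 1.67 FPKM in KO and 1.01 FPKM in WT, and Fdxr, the mitochondrial ferredoxin reductase, at 4.26 FPKM in KO and 2.53 FPKM in WT.

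The genes of DNA repair and nucleotide supply had the lowest summed level of the role groups, 15.7 FPKM in KO and 10.3 FPKM in WT. Polk, a translesion DNA polymerase, was at 2.91 FPKM in KO and 1.34 FPKM in WT, 2.17-fold higher in KO, with an interval of 0.83 to 1.43. Polh, the other translesion polymerase of the list, was at 3.56 FPKM in KO and 2.56 FPKM in WT, 1.39-fold higher. The damage-recognition factors of nucleotide excision repair were Xpc, at 3.78 FPKM in KO and 2.20 FPKM in WT, and Ddb2, at 4.05 FPKM in KO and 3.30 FPKM in WT. Xpc had a log2 ratio of 0.58 and Ddb2 of 0.23, on either side of the median gene. The row of Ddb2 shares its locus with Acp2, so its value is uncertain. Rrm2b, the p53-inducible subunit of ribonucleotide reductase, was at 1.39 FPKM in KO and 0.917 FPKM in WT, a ratio of 0.32.

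Set against counting error alone, 28 of the 32 intervals lay above 0 (against 78.6% of 11644 genes with a length) and 4 included it. Against the median gene at 0.50, 13 intervals lay above (against 30.8% of those genes), 8 below (against 31.4%) and 11 included it. By level, the 12 genes with a mean FPKM of 20 or more had a median log2 ratio of 0.68, against 0.50 over 2710 genes of that level. The 5 genes between 5 and 20 FPKM had a median of 0.26, against 0.46 over 4408 genes. The 15 genes between 1 and 5 FPKM had a median of 0.42, against 0.33 over 4633 genes. The list therefore lay above genes of like level at both ends and below them in between. By rank among the 11751 genes within each library, 19 of the 32 stood higher in KO and 13 lower. The share of all genes that stood higher was not computed, so nothing about the list is read from these counts. Perp stood above 30.6% of the genes in KO and 15.1% in WT, and Zmat3 above 56.9% in KO and 68.0% in WT.

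A further list of 42 p53 targets, of which 41 were found and 38 had a mean FPKM of 1 or more, lay at a median log2 ratio of 0.47. In it, 3 genes passed 2-fold upwards and none downwards, which compares with 5.06% and 0.689% of all genes. These were Gdf15, a stress-induced cytokine, at 33.5 FPKM in KO and 14.9 FPKM in WT, Btg2, an antiproliferative gene, at 23.5 FPKM in KO and 10.3 FPKM in WT, and Ptp4a3, a phosphatase, at 55.8 FPKM in KO and 25.4 FPKM in WT. Their log2 ratios were 1.12, 1.11 and 1.11. Btg1, a relative of Btg2, was just short of the limit at 14.7 FPKM in KO and 6.89 FPKM in WT. Relative to the median gene none of the 38 passed 2-fold. The lowest were Ckap2, a spindle protein, at 7.40 FPKM in KO and 9.35 FPKM in WT, and the gene of the glycolysis regulator Tigar, listed as 9630033F20Rik, at 2.11 FPKM in KO and 2.66 FPKM in WT. Next came Cd82, a tetraspanin, at -0.21, and Pltp, a phospholipid transfer protein, at -0.05.

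Regulators and partners of p53 lay at the median gene. Of 35 listed and found, 32 had a mean FPKM of 1 or more, with a median log2 ratio of 0.43, none past 2-fold and 17 above the median gene against 15 below. The largest ratios were those of Ppp1r13b, which encodes the p53 cofactor ASPP1, at 10.7 FPKM in KO and 5.05 FPKM in WT, and of the survival factor Mcl1, at 64.1 FPKM in KO and 34.9 FPKM in WT. Rpl11, a ribosomal protein that binds Mdm2, had a ratio of 0.75, and Cop1 (listed as Rfwd2), a ubiquitin ligase of p53, of 0.73. At the low end, the checkpoint kinase Chek1 was at 1.72 FPKM in KO and 2.45 FPKM in WT. Mdc1, a mediator of the damage checkpoint, had a ratio of -0.14, Chek2 of 0.00, and Cdkn2a, whose locus encodes the Mdm2 inhibitor ARF and p16, of 0.04. Trp63 and Trp73, the p53 relatives, were below a mean FPKM of 1.

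**Figure D3:**
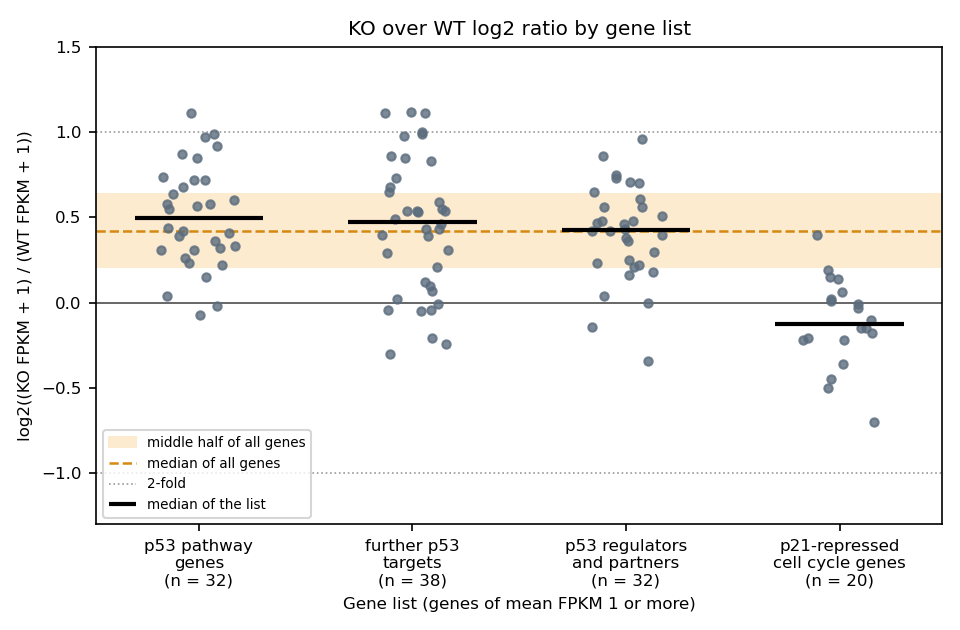
log2 ratio, KO over WT, of single genes (points) in the p53 pathway list, 2 related lists and a list of cell cycle genes described as repressed by p53 through p21. Shown are the median of each list (bar), the median of all 11751 genes at 0.42 (dashed) and their middle 50%, 0.21 to 0.64 (band). The first 3 lists centre near the dashed line and the fourth, with a median of -0.12, lies below it.

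Cell cycle genes described as repressed by p53 through p21 had a median log2 ratio of -0.12. All 20 lay below the median gene, which by definition splits all genes evenly. None was past 2-fold as deposited, and relative to the median gene 1 was, Cdc6, a replication licensing factor, at 3.66 FPKM in KO and 6.58 FPKM in WT. Mybl2, a subunit of the complex that activates mitotic genes, was at 9.69 FPKM in KO and 14.2 FPKM in WT, Plk1 had a ratio of -0.45, and Aurkb of -0.36. As deposited 13 of the 20 were lower and 7 higher in KO, where 88.6% of all genes were higher. The direction of the 7 thus flips with the scaling. Cdkn1a, the gene of p21, was above the median gene in the same comparison, at 0.30. Whether the 2 are connected was not tested, nor was the share of dividing cells in either culture.

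**Figure D4:**
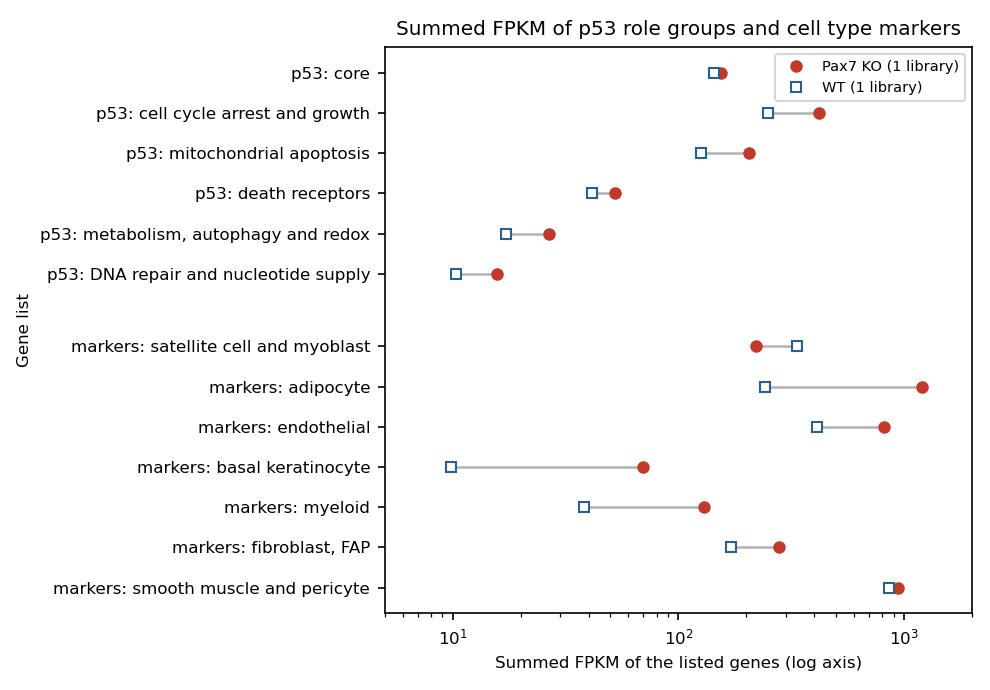
Summed FPKM (log axis) of the p53 genes by role (upper rows) and of 8 markers each of 7 cell types (lower rows) in the Pax7 KO library (filled circles) and the WT library (open squares), 1 library each. Sums of the p53 groups are 1.08-fold to 1.67-fold higher in KO, while those of adipocyte and keratinocyte markers are 4.97-fold and 7.12-fold higher and that of satellite cell markers is lower. The keratinocyte markers include Sfn, which is also listed as a p53 target.

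Summed by role, the p53 genes differed less than the markers of several cell types. The sum was 154 FPKM in KO and 144 FPKM in WT for the core, 418 FPKM in KO and 250.2 FPKM in WT for arrest and growth, and 206 FPKM in KO and 126 FPKM in WT for mitochondrial apoptosis. Death receptors summed to 52.4 FPKM in KO and 41.5 FPKM in WT. Genes of metabolism, autophagy and redox control summed to 26.7 FPKM in KO and 17.2 FPKM in WT. Over the role groups the sums were 1.08-fold to 1.67-fold higher in KO. The median gene was 1.42-fold higher, but that is a measure of single genes, while sums follow the most abundant ones. In KO Trp53 gave 123 FPKM of the core sum, and Tnfrsf10b 44.6 FPKM of the death receptor sum. Sums of myeloid markers were 129 FPKM in KO and 38.3 FPKM in WT, those of fibroblast and fibro-adipogenic progenitor markers 279.8 FPKM in KO and 170.5 FPKM in WT, and those of smooth muscle and pericyte markers 938 FPKM in KO and 860.5 FPKM in WT. The last sum hides unlike differences, as Acta2 gave 642 FPKM of it in KO and 626 FPKM in WT. Of its 8 markers 2 were at least 2-fold higher in KO (against 5.06% of all genes) and none was 2-fold lower (against 0.689%). These were Kcnj8, at 21.1 FPKM in KO and 4.53 FPKM in WT, and Rgs5, at 16.5 and 6.61 FPKM. All of the marker genes were listed above the lowest value in both libraries. Of the myeloid sum, the granule genes S100a8, S100a9 and Elane gave 43.9, 52.7 and 8.44 FPKM in KO. In WT they gave 9.92, 9.97 and 1.11 FPKM. Lyz2, at 12.97 FPKM in KO and 7.93 FPKM in WT, and Cd68, at 10.52 and 8.22 FPKM, were also higher in KO. The macrophage receptors Emr1 and Csf1r were low in both and lower in KO, at 0.156 and 0.379 FPKM in KO and 0.331 and 0.488 FPKM in WT. So was Ptprc, at 0.226 FPKM in KO and 0.318 FPKM in WT.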

How the data were processed

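The libraries were 1 Pax7 KO and 1 WT polyA RNA-seq library. The authors deposited FPKM per gene for both, per the file headers, and 2 tables of higher and lower genes with a KO over WT fold (the ratio of the FPKM), with no selection rule stated in the sources used here. Named in the submitters' processing notes, without roles, are the build mm9 and the tools Cuffdiff 2.1.1, Cufflinks 2.1.1 and TopHat2 2.0.9. Coordinates are those of the deposited table, with 1 added to the start.

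The columns were used as deposited and rows of 1 repeated symbol were summed. A pseudocount of 1 was added and genes with a mean FPKM under 1 were left out. FPKM hold no counts. Depth was approximated from the spacing of low values with the longest GENCODE M21 transcript as length (98.2% of symbols matched): the fit was loose, with a mean cosine of 0.314 in KO and 0.291 in WT where exact multiples give 1, and assumes that no library was rescaled. Multiplied by length, the FPKM summed to 946090 in KO and 684834 in WT, in fragments assigned to listed genes per 1000000 fragments.

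All 32 p53 genes, and up to 4 genes at either end of each further list, are named, and any other gene was picked with its values in view. The members and lists were chosen with earlier results of these data known. Ratios and depth were tested on simulated data. Alternatives were a 1.5-fold limit, pseudocounts of 0.1, 0.5 and none, no filter or one at a mean FPKM of 5, centring, upper-quartile scaling, taking only the highest of repeated rows, and leaving out genes that share a locus. Computation used matplotlib 3.10.9, scipy 1.17.1, pandas 2.3.3 and numpy 2.4.6 under Python 3.11.15.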

Additional observations from a re-analysis of the deposited data

How the results depend on the processing

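No result past 2-fold changed sign. The 1 p53 pathway gene past 2-fold became 4, 3 and 5 genes with pseudocounts of 0.1, 0.5 and none, 12 at the 1.5-fold limit, and 0 after centring on the median gene or upper-quartile scaling; the median of 0.50 became 0.08 and 0.09 under those scalings. For the further targets the 3 genes became 6, 6 and 7 with those pseudocounts, 13 at 1.5-fold and 0 under both scalings, with medians of 0.05 and 0.05. For regulators and partners the count of 0 became 1, 1 and 1, then 8 at 1.5-fold, with medians of 0.00 and 0.01 under the scalings. For the p21-repressed genes the lower count of 0 became 1 after centring, 1 with upper-quartile scaling and 1 at 1.5-fold, with medians of -0.54 and -0.59. Under centring and upper-quartile scaling, the role medians became -0.20 and -0.10 (core), 0.22 and 0.15 (arrest), 0.18 and 0.22 (apoptosis), -0.09 and -0.07 (death receptors), 0.15 and 0.18 (metabolism) and -0.06 and 0.05 (repair). The core median was 0.32 and 0.34 with a pseudocount of 0.1 and none, and the arrest median 0.79 without genes that share a locus. A smaller pseudocount shrinks the ratios of low genes less, and a lower limit admits more genes. Centring subtracts 1 value from every ratio. Upper-quartile scaling acts before the pseudocount and lowers the ratios of low genes less: Trp53 went from 0.04 to -0.46, and Pmaip1 from -0.02 to -0.28. With a mean FPKM of 5 or more the metabolism group was left with 1 gene, Sesn2, at 0.26 against its median of 0.57, and the repair group had no gene left. No filter, and the highest row of a repeated symbol, moved no list or role median by more than 0.04.

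No paired analysis was possible because each genotype has 1 library. Depth limits the genes of low level most: Pmaip1 rests on about 72 fragments in KO and Perp on about 83 in WT, and the intervals of 11 of 32 genes include the median gene.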

Other observations

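Genes of the Bcl2 family that p53 acts through were compared by ratios within a library, which do not depend on scaling; these pairs were chosen with the values of their genes known. The level of Bax per Bcl2l1, the gene of the survival protein Bcl-xL, was 3.22 in KO and 3.21 in WT. Bax per Mcl1 was 2.02 in KO and 2.23 in WT. Bax per Bcl2, a survival gene at 2.39 FPKM in KO and 1.65 FPKM in WT, was 54.0 in KO and 47.2 in WT. Bax per Bak1, the other pore-forming member, was 3.83 in KO and 3.02 in WT. The level of Cdkn1a per Bax was 1.26 in KO and 1.27 in WT. With 1 library per genotype none of these differences has a replicate check.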
